A study of Mus musculus with 12 samples.

Results

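Sox10, Mbp, Cdh19 and S100b, 4 genes used as markers of Schwann cells, were followed in mouse fat. They were taken by symbol from the deposited expression table and make up 4 of its 16670 genes. The table covers inguinal white adipose tissue of female C57BL/6 mice, separated after collagenase digestion into a stromal vascular fraction, the pelleted mixture of non-fat cells, and a mature adipocyte fraction, the floating fat cells. Each fraction was sequenced from pools of 2 mice, 3 pools labelled Kdm5c+/- and 3 labelled Kdm5c+/+ (wild type), which gave 4 groups of 3 libraries. The labels give neither the age of the mice nor the part of Kdm5c that was removed, and all animals share the strain and sex. Kdm5c, an X-linked gene for a histone H3 demethylase, had 158 to 190.3 CPM in mature adipocyte libraries labelled Kdm5c+/-, against 174 to 180.0 CPM in wild type. Stromal vascular libraries held 175 to 194 CPM of it under the Kdm5c+/- label and 180.1 to 188 CPM in wild type. The level over the whole gene therefore did not separate the labels, which stand here as the submitters gave them; it would not show a deletion of a few exons. Summed over the genes of the table, the reads recovered from the CPM came to 21836878 to 29434125 per library. Levels are in CPM, reads scaled to a fixed total per library, and 3 reads corresponded to 0.102 to 0.137 CPM.

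Schwann cells are the glia of peripheral nerves. Myelinating Schwann cells wrap single large axons in layers of membrane, and non-myelinating (Remak) Schwann cells hold bundles of thin axons, such as the sympathetic fibres that reach adipose tissue and drive lipolysis and thermogenesis there. The lineage depends on the transcription factor SOX10, on the axonal growth factor neuregulin 1, and on its receptor ERBB3 on the glial cell. MBP compacts myelin, CDH19 is a cadherin of the Schwann cell lineage, and S100B is a small calcium-binding protein of glia. These genes are not restricted to Schwann cells: Sox10 also marks melanocytes and mammary epithelium, S100b is known from adipocytes, and the Mbp locus also gives golli transcripts in other cells, which a count per gene does not separate.

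In GRCm38 with the GENCODE M21 annotation, S100b lies on the plus strand at chr10:76253853-76261159 with 1 transcript and shares 1731 bases with Dip2a on the opposite strand. The libraries were strand-specific, but whether the counting used the strand is not given in the sources used here, so reads of S100b and Dip2a may not be fully separated. A RefSeq promoter was matched for S100b but not for Sox10, Mbp or Cdh19, so only the S100b promoter is shown. It could not be compared with promoters of the other genes, and a link to the levels in the fractions was not tested. The stretch is the 250 bases before the RefSeq start in build GRCm38.p6, chr10:76253586-76253835, plus strand, with capitals for CCAAT boxes on either strand.
S100b promoter: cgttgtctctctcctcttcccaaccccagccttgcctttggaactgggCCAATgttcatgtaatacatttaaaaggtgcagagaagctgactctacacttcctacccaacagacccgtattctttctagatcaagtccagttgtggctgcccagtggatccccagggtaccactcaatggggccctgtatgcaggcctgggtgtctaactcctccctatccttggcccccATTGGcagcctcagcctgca
The CCAAT matches began 202 bases before the start on the plus strand and 20 bases before it on the minus strand. The same RefSeq table held 32851 mouse promoters, each with 250 bases before the start and 50 after it. Only the 250 bases before the start were searched, and 33.8% of these promoters held such a match there. Neither the SOX core words ACAAAG and ACAATG nor the TATA word TATAAA, each searched on both strands, occurred in the S100b promoter, against 25.2% and 12.4% of promoters that held them.

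Sox10 lies on the minus strand at chr15:79154908-79165240 in the same annotation with 4 transcripts, Cdh19 on the minus strand at chr1:110888326-110977584 with 2 transcripts, and Mbp on the plus strand of chromosome 18 at 82475146 to 82585637 with 16 transcripts. All 4 genes were detected in each of the 6 stromal vascular libraries. Sox10 measured 20.8, 29.4 and 10.9 CPM in stromal vascular libraries labelled Kdm5c+/-, against 13.6, 18.7 and 20.9 CPM in wild type. Mbp was the most abundant, with 307.2, 408.8 and 166.6 CPM in stromal vascular libraries labelled Kdm5c+/-, against 166.4, 227.6 and 224.1 CPM in wild type. Cdh19 measured 15.8, 27.5 and 17.5 CPM in stromal vascular libraries labelled Kdm5c+/-, against 16.3, 18.3 and 23.8 CPM in wild type. The Kdm5c+/- library of replicate 2 was the highest of the 6 for these genes, and the ranges of the genotypes overlapped for each. S100b measured 11.3, 16.6 and 8.01 CPM in stromal vascular libraries labelled Kdm5c+/-, against 6.13, 8.80 and 9.52 CPM in wild type, again highest in that library and again with overlap. Per kilobase of annotated exon, which allows a comparison between genes, the stromal vascular level of Mbp averaged 29.5 ± 11.03 CPM per kb (SD, n = 6). S100b followed with 6.77 ± 2.44, Sox10 with 6.24 ± 2.12 and Cdh19 with 4.65 ± 1.10 CPM per kb (SD, n = 6 each). The lowest Mbp library (19.6 CPM per kb) exceeded the highest library of the other 3 genes (11.2 CPM per kb), whereas S100b, Sox10 and Cdh19 overlapped and were not ordered beyond their spread.

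In the mature adipocyte libraries the 4 genes parted. Sox10 was low, with 0.771, 0.280 and 0.627 CPM under the Kdm5c+/- label and 0.661, 0.442 and 1.35 CPM in wild type, which rested on 7 to 35 reads per library. Mbp stayed well measured, with 59.9, 49.4 and 64.1 CPM under the Kdm5c+/- label and 60.1, 64.6 and 75.9 CPM in wild type. Every stromal vascular library lay above every mature adipocyte library for both genes, as was so for 51.4% of all genes tested. Cdh19 measured 4.77, 5.28 and 4.94 CPM in mature adipocyte libraries labelled Kdm5c+/-, against 10.3, 12.3 and 6.37 CPM in wild type, again below all stromal vascular libraries. S100b measured 2.42, 2.40 and 8.27 CPM in mature adipocyte libraries labelled Kdm5c+/-, against 6.57, 16.3 and 9.89 CPM in wild type, so that its mature adipocyte range of 2.40 to 16.3 CPM spanned most of its stromal vascular range of 6.13 to 16.6 CPM. Per kilobase, the mature adipocyte order was Mbp (7.36 ± 1.02 CPM per kb), S100b (5.15 ± 3.51), Cdh19 (1.71 ± 0.75) and Sox10 (0.226 ± 0.121, SD, n = 6 each). Mbp overlapped S100b there and S100b overlapped Cdh19, while Sox10, with at most 0.443 CPM per kb, stayed below the lowest Cdh19 library at 1.11 CPM per kb.

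**Figure D1:**
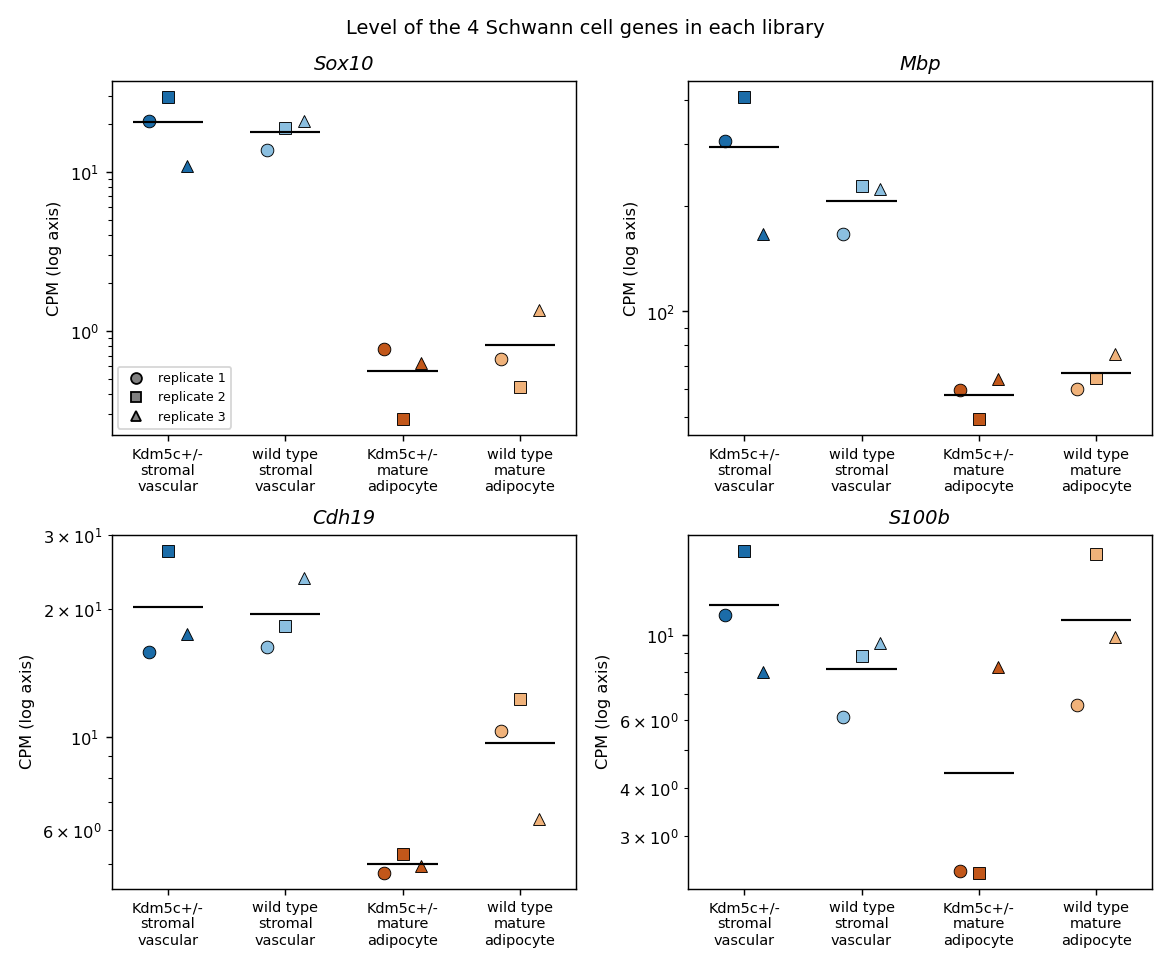
CPM on a log axis for Sox10, Mbp, Cdh19 and S100b in each of the 12 libraries, with symbols for the replicate and lines for group means. The fractions separate for Sox10, Mbp and Cdh19, while S100b ranges from 2.40 to 16.3 CPM in mature adipocytes and from 6.13 to 16.6 CPM in stromal vascular libraries.

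Between the fractions, Sox10, Mbp and Cdh19 were higher in the stromal vascular libraries and S100b did not pass the test. The test was limma on log2(CPM + 1), two-sided, with Benjamini-Hochberg adjustment over 14193 genes and a threshold of 0.05 on the adjusted p. Stromal vascular minus mature adipocyte, Sox10 differed by a log2 of 3.53 ± 0.22 (SE, adjusted p = 2.28e-08), a scale that understates the change of genes near 0. Mbp differed by 1.92 ± 0.19 (adjusted p = 1.31e-06) and Cdh19 by 1.38 ± 0.17 (adjusted p = 9.11e-06). S100b differed by 0.54 ± 0.29, with a 95% interval from -0.11 to 1.18 (limma, adjusted p = 0.105). Read against the whole table these calls were common, since 87.8% of all genes tested passed, 59.1% with the higher level in stromal vascular cells and 28.7% with the higher level in mature adipocytes. The median log2 difference of all genes tested was 0.45, and rescaling the libraries moved that median by -0.36 to -0.55, while Sox10, Mbp and Cdh19 stayed called in the same direction under every setting tried. In bulk RNA, fewer cells of a type and less RNA per cell cannot be told apart. The replicates are pools of 2 mice, and p-values measure the spread among such pools.

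The call for S100b depended on which libraries entered. Without the mature adipocyte library labelled Kdm5c+/- of replicate 3 the log2 difference was 0.78 (limma, adjusted p = 0.00884), and without the wild-type mature adipocyte library of replicate 2 it was 0.69 (adjusted p = 0.0452). In wild-type libraries alone it was -0.32 (adjusted p = 0.358), and quantile normalization of all libraries gave -0.38 (adjusted p = 0.195), both with the higher level in mature adipocytes. edgeR's quasi-likelihood test on the reads recovered from the CPM gave 0.05 (adjusted p = 0.899) for S100b and 4.33, 1.51 and 1.04 for Sox10, Mbp and Cdh19, which passed as 43.3% of all genes did there with that sign. Dip2a, the overlapping gene on the other strand, measured 84.5, 72.5 and 85.3 CPM in stromal vascular libraries labelled Kdm5c+/-, against 95.9, 90.2 and 91.5 CPM in wild type. In mature adipocytes Dip2a measured 38.0, 27.7 and 42.0 CPM under the Kdm5c+/- label and 45.1, 45.1 and 43.6 CPM in wild type. Whether its reads enter the S100b level was not tested.

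Expressed as a share of the stromal vascular mean, the mature adipocyte mean was 3.61% for Sox10, 24.9% for Mbp, 36.8% for Cdh19 and 76.0% for S100b, beside a median of 71.6% over all 14193 genes tested between the fractions. For S100b this average joined 36.5% under the Kdm5c+/- label and 134% in wild type, and single pools ran from 14.5% to 185%. For Cdh19 it was 24.6% under the Kdm5c+/- label and 49.6% in wild type. Mbp had 19.6% and 32.5%, and Sox10 2.75% and 4.61%, in the same order. The fraction difference can be compared between genes within each of the 6 pools, where the scaling of a library is shared. The stromal vascular excess of Sox10 was larger than that of Mbp by a log2 of 1.61 ± 0.23, than that of Cdh19 by 2.15 ± 0.73 and than that of S100b by 3.00 ± 0.98 (SD over 6 pools). The excess of Mbp was larger than that of S100b by 1.39 ± 0.76. Each of these 4 differences had the same sign in 6 of 6 pools, with p = 0.03125 in an exact two-sided sign-flip permutation test, the smallest it can give with 6 pools, and p = 0.0469 adjusted over the 6 pairs of genes. Mbp exceeded Cdh19 by 0.54 ± 0.63 and Cdh19 exceeded S100b by 0.84 ± 0.92, each in 4 of 6 pools (exact p = 0.125, adjusted p = 0.125). This comparison of pairs was added after the values had been seen. It relies on the replicate numbers linking the fractions of a pool, which the data do not settle.

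The same parting was visible in ratios within a library. For every 1 CPM of Mbp, the stromal vascular libraries labelled Kdm5c+/- held 0.0656 to 0.0719 CPM of Sox10 and the wild-type ones 0.0817 to 0.0934 CPM. Mature adipocyte libraries held 0.00567 to 0.0129 CPM of Sox10 per CPM of Mbp under the Kdm5c+/- label and 0.00683 to 0.0178 CPM in wild type. The Sox10 to Mbp ratio thus did not overlap between the fractions. S100b per CPM of Mbp lay between 0.0367 and 0.0481 in stromal vascular libraries labelled Kdm5c+/- and between 0.0368 and 0.0425 in wild type. It lay between 0.0404 and 0.129 in mature adipocyte libraries labelled Kdm5c+/- and between 0.109 and 0.252 in wild type.

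Other Schwann cell genes give the setting for these values. Of 40 further genes in 3 lists (transcription and signalling, myelin and paranode, non-myelinating), 38 were in the table and 34 were abundant enough to test, with 28 higher in the stromal vascular fraction and 3 higher in mature adipocytes by limma. Their median log2 difference was 2.38, against 0.45 for all genes tested. Of all genes tested, 59.1% passed as higher in stromal vascular and 28.7% as higher in mature adipocyte libraries. The mature adipocyte mean was under 10% of the stromal vascular mean in 26 of the 38 Schwann cell genes, between 10% and 50% in 6 and above 50% in 6. The median over all genes tested was 71.6%, and the share of all genes in these ranges was not counted. By the same bounds Sox10 belonged to the lowest range, Mbp and Cdh19 to the middle one and S100b to the highest. Under the Kdm5c+/- label alone S100b, at 36.5%, fell in the middle range.

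In the list of transcription and signalling genes, 7 of 9 tested passed with the higher level in stromal vascular cells and none was higher in mature adipocytes. They included Lgi4, a secreted ligand needed for axon sorting and myelination (log2 difference 4.23), the neuregulin receptor Erbb3 (3.74), the nerve sheath morphogen Dhh (3.18), the neural crest factor Foxd3 (1.60) and the connexin Gjc3 (1.97). Egr2, a factor that switches on myelin genes and is also induced as an immediate early gene in many cells, had -0.23 and 118% in mature adipocytes, and Pou3f1, a promyelinating factor, had 0.29, and neither passed. In the myelin and paranode list, 15 of 16 tested were higher in the stromal vascular fraction, among them Cnp, an enzyme of the myelin sheath (2.26), the node component Gldn (2.10), the tight junction gene Cldn19 (2.72) and periaxin Prx (3.53). Pmp22, a myelin protein that is also made outside glia, had a mature adipocyte mean at 48.3% of the stromal vascular mean, and Pllp, which did not pass, had one at 87.2%. In the non-myelinating list, the adhesion molecule L1cam (4.68), the GDNF-family receptor Gfra3 (2.26), the adhesion gene Cadm2 (2.79) and the potassium channel Kcna1 (4.12) were among the 6 of 9 that passed with the higher level in stromal vascular cells. The matrix gene Matn2 (-1.63) and the sodium channel Scn7a (-0.66) were among the 3 higher in mature adipocytes. Of all genes tested 59.1% passed as higher in stromal vascular and 28.7% as higher in mature adipocyte libraries, so the split of the non-myelinating list lay near that of all genes. Pmp22, Pllp, Matn2 and Scn7a were singled out after their values had been seen, as were Egr2 and Pou3f1.

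**Figure D2:**
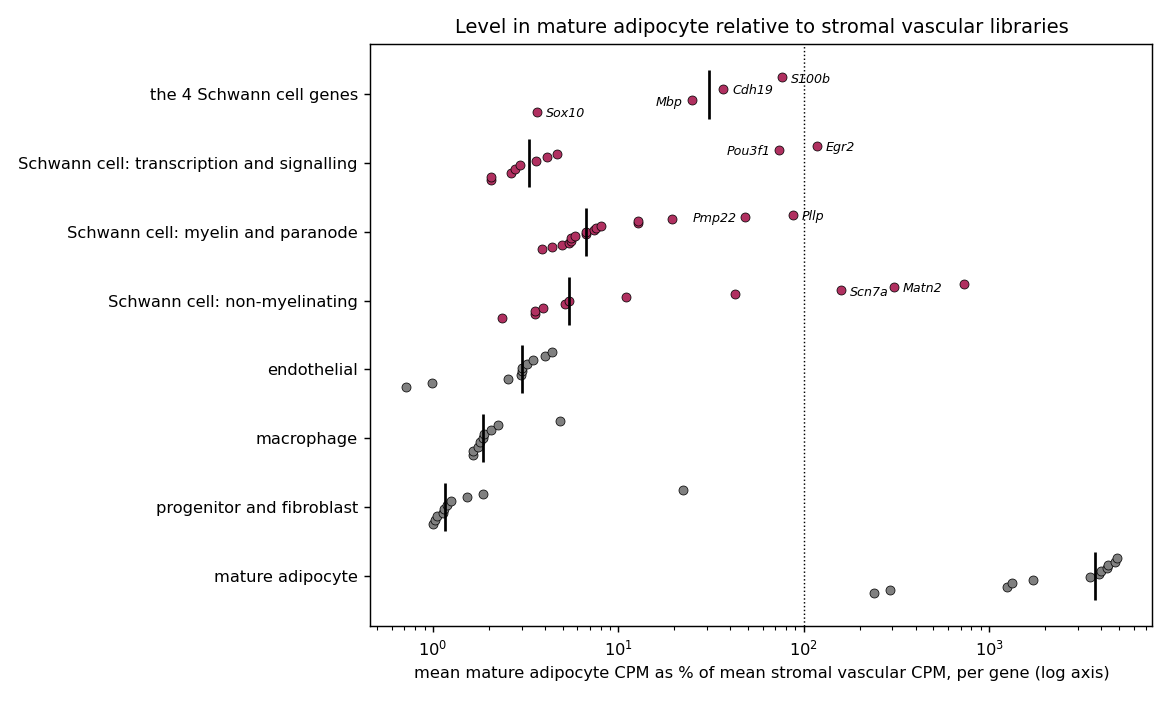
Mean CPM in the 6 mature adipocyte libraries as a percentage of the mean CPM in the 6 stromal vascular libraries, on a log axis, with a point per gene, a bar at each list's median and a dotted line at equal levels. Sox10 at 3.61% lies among the other transcription genes, whereas S100b at 76.0% lies with the few that stay high. The S100b point averages 36.5% under the Kdm5c+/- label and 134% in wild type.

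Markers of other cell types were read in the same way. As medians over each list, mature adipocyte libraries kept 3.02% of the stromal vascular level for endothelial genes, 2.98% for pericyte and smooth muscle genes, 1.87% for macrophage genes and 1.17% for progenitor and fibroblast genes. As sums over each list, which its most abundant genes set, the mature adipocyte library of a pool held 1.84% to 3.88% of its stromal vascular sum for endothelial genes, 1.16% to 4.99% for macrophage genes, 2.84% to 11.2% for progenitor and fibroblast genes and 5.90% to 12.5% for pericyte and smooth muscle genes. The mature adipocyte list, summed in the stromal vascular libraries, came to 10.2% to 15.5% of its sum in the mature adipocyte library of the same pool. As ratios of 6-library means, Sox10 at 3.61% lay above these 4 medians and within the range of the sums, and Mbp, Cdh19 and S100b lay above both. By pool, Mbp fell to 12.1% in Kdm5c+/- replicate 2, within the range of the pericyte and smooth muscle sums. Single genes reached 22.2% in the progenitor and fibroblast list and 111% in the pericyte and smooth muscle list. Neuron and axon genes, of which 9 of 12 were in the table, summed to 35.7 to 38.0 CPM in stromal vascular libraries labelled Kdm5c+/- and 36.3 to 43.5 CPM in wild type, and in mature adipocytes to 0.991 to 1.04 CPM under the Kdm5c+/- label and 0.868 to 1.22 CPM in wild type. All 3 that were tested passed as higher in the stromal vascular fraction, with Stmn2, a microtubule regulator of neurons, at 4.47, Uchl1 at 2.77 and Tubb3 at 1.61. Of all genes tested, 59.1% passed with that sign. Among the 9 genes, 2 that were too low to test had a mature adipocyte mean above 50% of the stromal vascular mean, at up to 246%. Among genes of the perineurium and endoneurium, the connective tissue of nerves, 5 of 6 tested were higher in the stromal vascular fraction, beside the same 59.1% of all genes. Etv1 had 3.39, Osr2 3.54, Moxd1 2.53, Slc2a1 1.65 and Cldn1 3.02. Melanocytes and mammary epithelium, which also express Sox10, could be present in an inguinal pad of female mice. In the stromal vascular fraction the 6 of 8 melanocyte genes in the table summed to 90.5 to 116 CPM under the Kdm5c+/- label and 107 to 131 CPM in wild type. Tyrp1, an enzyme of pigment synthesis, lay near the level of 3 reads (0.102 to 0.137 CPM) in several of these libraries, at 0.0822 to 0.779 CPM under the Kdm5c+/- label and 0 to 0.180 CPM in wild type, and was at 0 in all mature adipocyte libraries. It is 1 gene of this list, and the genes that set the sum are not reported here. Of 5 melanocyte genes tested between the fractions, 3 were higher in stromal vascular and 2 in mature adipocyte libraries (limma), beside 59.1% and 28.7% of all genes tested. The 13 mammary epithelial genes summed to 157 to 622 CPM in stromal vascular libraries labelled Kdm5c+/- and 239 to 463 CPM in wild type, and the part of epithelial cells in the Sox10 level was not tested.

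The genotype comparison asks whether the level of these genes differed between pools labelled Kdm5c+/- and wild-type pools within a fraction. In mature adipocytes all 3 that were abundant enough to test had lower means under the Kdm5c+/- label, and none passed. The test gave 0 calls over 11913 genes (0% called), 0 with edgeR and 250 (2.1%) with DESeq2, with 1737 genes at an unadjusted limma p under 0.05 and 1755 in edgeR. S100b averaged 4.36 ± 3.38 CPM under the Kdm5c+/- label and 10.9 ± 4.93 CPM in wild type (SD, n = 3 each), a log2 difference of -1.24 ± 0.47 (SE, limma, adjusted p = 0.319). The library of replicate 3 under the Kdm5c+/- label, at 8.27 CPM, overlapped the wild-type range, while the other pair lay below it. Cdh19 averaged 5.00 ± 0.26 CPM under the Kdm5c+/- label and 9.65 ± 3.01 CPM in wild type (SD, n = 3 each), a log2 difference of -0.79 ± 0.22 (limma, adjusted p = 0.280). Its groups did not overlap, as was so for 12.6% of all genes tested in that direction and for 9.44% in the other. DESeq2 called Cdh19 lower under the Kdm5c+/- label (log2 -0.91, adjusted p = 0.0445), while the adjusted p under the other alternatives ranged up to 0.612. Mbp averaged 57.8 ± 7.59 CPM under the Kdm5c+/- label and 66.9 ± 8.11 CPM in wild type, a log2 difference of -0.21 ± 0.13 (limma, adjusted p = 0.458), which was -0.10 without Kdm5c+/- replicate 2 and -0.12 without wild-type replicate 3. Sox10 was below the minimum level for the test of 1 CPM in at least 3 libraries. Without that filter its log2 difference was -0.20, with a 95% interval from -0.71 to 0.30 (limma, adjusted p = 0.707).

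Marker lists of other cell types were read beside S100b and Cdh19 in the mature adipocyte libraries, and none of their genes passed the genotype test. All 10 of 10 endothelial genes had negative log2 differences there, and their sum was 127 to 237 CPM under the Kdm5c+/- label and 283 to 349 CPM in wild type. All 10 of 10 progenitor and fibroblast genes were negative too, as were 9 of 9 macrophage genes and 7 of 8 pericyte and smooth muscle genes, and none of these genes was at 0 in all mature adipocyte libraries. Over all genes tested, 56.9% were negative and the median log2 difference was -0.03. The progenitor and fibroblast sum was 395.6, 346 and 1252 CPM in Kdm5c+/- libraries 1 to 3 and 835, 1270 and 1129 CPM in wild-type libraries 1 to 3. It was thus low in the same pair of libraries as S100b and high in the same library labelled Kdm5c+/-. Cdh19 did not follow that order, with 4.77, 5.28 and 4.94 CPM in Kdm5c+/- libraries 1 to 3. Most of that sum was the collagen gene Col1a1, at 262 to 1161 CPM under the Kdm5c+/- label and 721 to 1083 CPM in wild type. Macrophage genes summed to 38.7 to 43.4 CPM under the Kdm5c+/- label and 39.8 to 118 CPM in wild type, ranges that overlap. Pericyte and smooth muscle genes summed to 197 to 369 CPM under the Kdm5c+/- label and 336 to 566 CPM in wild type. Mature adipocyte genes summed to 43829 to 52350 CPM under the Kdm5c+/- label and 38624 to 38799 CPM in wild type. The part of these other cells in the S100b and Cdh19 levels was not tested.

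**Figure D3:**
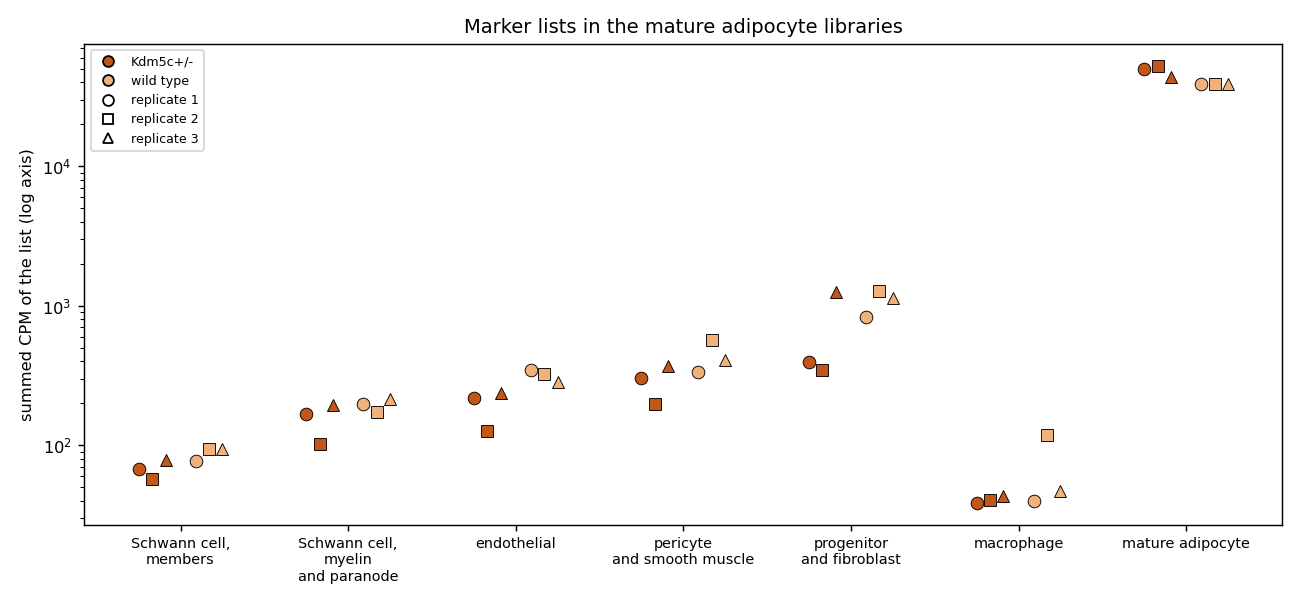
Summed CPM of marker lists in the 6 mature adipocyte libraries, on a log axis, with colours for the genotype label and symbols for the replicate. The progenitor and fibroblast sum is 346 and 395.6 CPM in replicates 2 and 1 labelled Kdm5c+/- and at least 835 CPM in the other 4 libraries.

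Further Schwann cell genes in mature adipocytes gave 0 calls among 17 tested, with 13 negative and 4 positive log2 differences and a median of -0.18. In the myelin and paranode list 7 of 8 were negative, with a median of -0.35. By unadjusted p the first were Prx (-0.57), Mal (-0.42) and Pmp22 (-0.43), with limma adjusted p of 0.403, 0.450 and 0.494. Of 10 transcription and signalling genes in the table only 3 were abundant enough to test, Egr2 (0.26), Lgi4 (-0.26) and Pou3f1 (0.28). The first by unadjusted p of the non-myelinating list included Scn7a (-0.18) and Kcna1 (-0.28).

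In the stromal vascular fraction none of the 4 genes passed the test between the labels. The test called 1 of 13792 genes (0.00725%), 1 with edgeR and 53 with DESeq2, and the groups overlapped for all 4 genes, where 9.74% of genes tested lay wholly lower and 3.74% wholly higher under the Kdm5c+/- label. S100b averaged 11.96 ± 4.32 CPM under the Kdm5c+/- label and 8.15 ± 1.79 CPM in wild type (SD, n = 3 each), a log2 difference of 0.47 ± 0.26 with a 95% interval from -0.15 to 1.09 (limma, adjusted p = 0.680). Mbp averaged 294.2 ± 122 CPM under the Kdm5c+/- label and 206.0 ± 34.4 CPM in wild type, a log2 difference of 0.43 ± 0.33 with an interval from -0.35 to 1.22 (limma, adjusted p = 0.752). Sox10 averaged 20.4 ± 9.24 CPM under the Kdm5c+/- label and 17.7 ± 3.76 CPM in wild type, with a log2 difference of 0.11 and an interval from -0.73 to 0.94 (limma, adjusted p = 0.955). Cdh19 averaged 20.3 ± 6.32 CPM under the Kdm5c+/- label and 19.5 ± 3.85 CPM in wild type, with a log2 difference of 0.03 and an interval from -0.50 to 0.56 (limma, adjusted p = 0.984). For Sox10 and Cdh19 the sign turned when the Kdm5c+/- library of replicate 2 was left out, to -0.20 for each, or the wild-type library of replicate 1, to -0.06 and -0.08. Over all libraries left out in turn Sox10 ran from -0.20 to 0.48 and Cdh19 from -0.20 to 0.18. For S100b the difference was 0.22 without Kdm5c+/- replicate 2, 0.70 without Kdm5c+/- replicate 3 and 0.30 without wild-type replicate 1. For Mbp the same omissions gave 0.15, 0.79 and 0.29. Of 34 other Schwann cell genes tested there, 26 had positive log2 differences, with a median of 0.22 and 0 calls. By unadjusted p the first of the 3 lists were Lgi4 (0.42), Tfap2a (-0.43) and Foxd3 (0.23), Ugt8a (0.57), an enzyme of myelin lipid synthesis, Pllp (0.52) and Cnp (0.22), and Ncam1 (0.37), Kcna1 (0.51) and L1cam (-0.10), with limma adjusted p from 0.634 to 0.822.

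**Figure D4:**
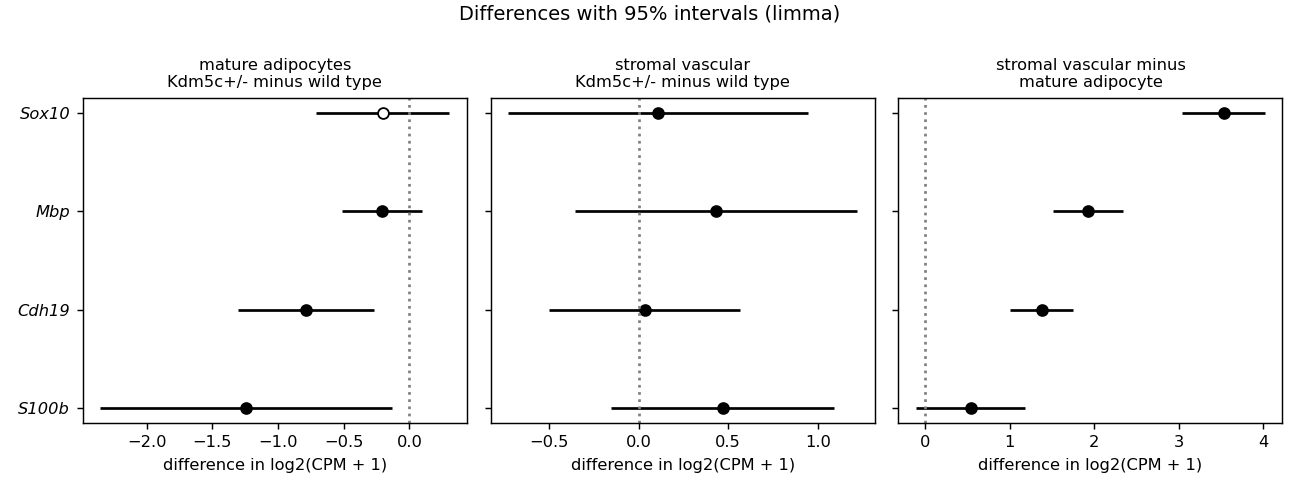
Log2 differences from limma on log2(CPM + 1) with 95% intervals for the 4 genes: Kdm5c+/- minus wild type in mature adipocytes (left) and in stromal vascular cells (middle), and stromal vascular minus mature adipocyte (right). The open symbol is Sox10 fitted without the filter on low values, at -0.20, and the right panel runs from 0.54 for S100b to 3.53 for Sox10.

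Whether the genotype difference itself differed between the fractions was tested as an interaction in all 12 libraries, which gave 0 calls over 14193 genes (0% called) with limma and 0 with edgeR, against 67 with DESeq2, with 1267 genes at an unadjusted limma p under 0.05 and 1427 in edgeR. Mature adipocyte minus stromal vascular, the interaction was -1.71 ± 0.59 for S100b (95% interval -3.0015 to -0.42, limma, adjusted p = 0.509), the furthest from 0 of the 4 genes. It was -0.82 ± 0.34 for Cdh19 (adjusted p = 0.530), -0.64 ± 0.38 for Mbp (adjusted p = 0.644) and -0.31 ± 0.44 for Sox10 (adjusted p = 0.870). All 4 were negative, as were 52.7% of all genes tested. Without stromal vascular Kdm5c+/- replicate 2 the interaction was -0.0075 for Sox10 and -0.36 for Mbp, and without stromal vascular Kdm5c+/- replicate 3 it was -0.68 for Sox10 and -1.0024 for Mbp. For Sox10 it was also -0.14 without stromal vascular wild-type replicate 1, -0.18 without mature adipocyte Kdm5c+/- replicate 2 and -0.11 without mature adipocyte wild-type replicate 3. In the myelin and paranode list 16 of 16 genes tested were positive in the stromal vascular genotype comparison, with a median of 0.31, and 16 of 16 were negative for the interaction, with 0 calls in either. Over all genes tested 40.6% were positive in the stromal vascular comparison, with a median of -0.03. Macrophage genes showed the same signs, 9 of 9 positive in the stromal vascular comparison and 9 of 9 negative for the interaction. Of 12 mature adipocyte genes 10 were positive and 11 negative in turn. Mammary epithelial genes were split, with 6 of 13 positive and 7 of 13 negative. All 5 melanocyte genes tested were positive for the interaction. Of the 17 myelin and paranode genes 16 were highest in stromal vascular Kdm5c+/- replicate 2, so they are not separate observations. The stromal vascular and interaction estimates share libraries and are not independent.

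The spread among stromal vascular pools was shared by most Schwann cell genes. Between the highest and the lowest of the 6 libraries Sox10 differed 2.69-fold, S100b 2.71-fold, Mbp 2.46-fold and Cdh19 1.74-fold. The Kdm5c+/- library of replicate 2 stood at 154% of the 6-library mean for Sox10, 163% for Mbp, 138% for Cdh19 and 165% for S100b, and held the highest level of 16 of 17 myelin and paranode genes. The share of all genes that were highest in that library was not counted, so whether the count is particular to this list is not known. The myelin and paranode sum was 862, 1204 and 606 CPM in Kdm5c+/- libraries 1 to 3 and 581, 753 and 788 CPM in wild-type libraries 1 to 3. Mature adipocyte genes ranked these libraries similarly, with sums of 6971, 8130 and 4491 CPM in Kdm5c+/- libraries 1 to 3 and 4854, 5693 and 5087 CPM in wild-type libraries 1 to 3. Both sums were highest in Kdm5c+/- replicate 2 and next in Kdm5c+/- replicate 1. Macrophage genes were also highest in Kdm5c+/- replicate 2, at 3530 CPM, and endothelial genes were lowest there, at 6911 CPM. Mammary epithelial genes summed to 309, 622 and 157 CPM in Kdm5c+/- libraries 1 to 3 and 277, 239 and 463 CPM in wild-type libraries 1 to 3. They were highest in Kdm5c+/- replicate 2, then wild-type replicate 3, then Kdm5c+/- replicate 1, and lowest in Kdm5c+/- replicate 3, as was Sox10. Neuron and axon genes did not follow that order, with 38.0, 35.7 and 36.6 CPM in Kdm5c+/- libraries 1 to 3 and 36.3, 40.0 and 43.5 CPM in wild-type libraries 1 to 3. The part of adipocyte, epithelial or nerve content of a pellet in the Schwann cell gene levels was not tested.

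**Figure D5:**
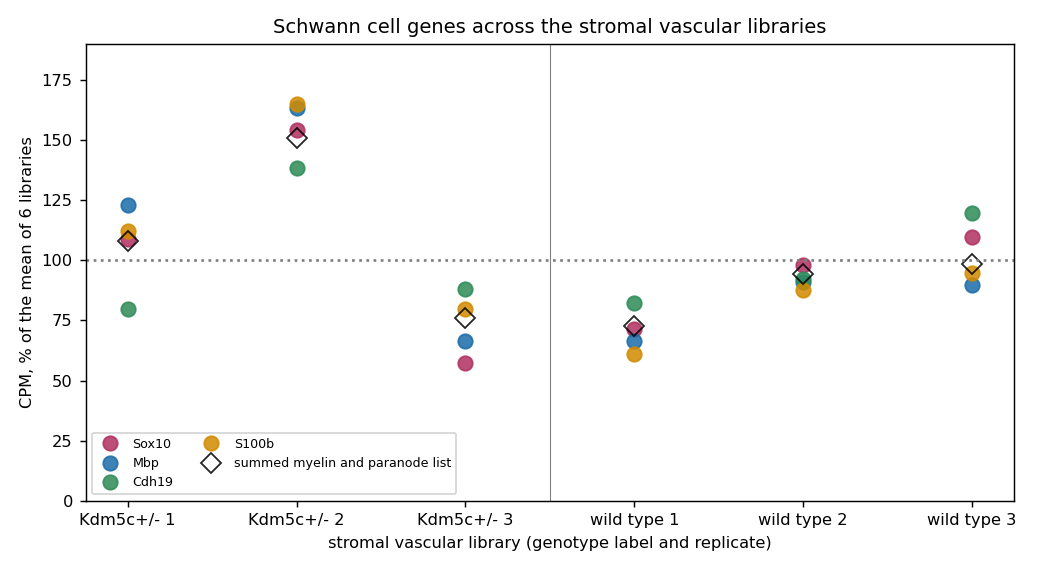
CPM of the 4 genes in each stromal vascular library as a percentage of the gene's mean over the 6 libraries, with diamonds for the summed myelin and paranode list. Kdm5c+/- replicate 2 is the highest for each gene, from 138% for Cdh19 to 165% for S100b.

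Correlations over these 6 libraries, which share that high library, describe how alike the genes ran. Pearson's r of log2(CPM + 1) was 0.96 between S100b and Mbp, 0.93 between Sox10 and Mbp and 0.86 between Sox10 and S100b. Cdh19 was less alike, with 0.70 to Sox10, 0.69 to S100b and 0.58 to Mbp. Each gene was also compared with 28 genes of the Schwann cell lists, which include the rest of the 4 genes. The median r was 0.93 for Mbp, 0.90 for S100b, 0.87 for Sox10 and 0.65 for Cdh19. Beside these, the medians against all 11463 genes compared lay between -0.10 and 0.00. An alternative without Kdm5c+/- replicate 2 was added after the values had been seen. Over its 5 libraries the medians against the 28 genes were 0.85 for Mbp, 0.82 for S100b, 0.81 for Sox10 and 0.25 for Cdh19. Against all genes they were 0.08 for Mbp, -0.03 for S100b, 0.14 for Sox10 and 0.02 for Cdh19. The genes most like Mbp were Sptb, the erythroid spectrin chain, Drp2, a partner of periaxin in the myelin sheath, the axonal motor Kif1a, Aasdh and Cab39l (r of 0.99 to 1.00). Those most like Sox10 included Rrp7a, Gprc5b, Tmem176a and Cadm4, an adhesion molecule of the myelin internode (0.99 each). S100b ran most like Adcy1, the cell cycle inhibitor Cdkn1a, Hs1bp3, Rpl7l1 and the tight junction gene Cldn19 of myelinating Schwann cells (0.99 to 1.00). Cdh19 ran most like Tm6sf1, Plekhf1, Tiam2, Lars and the calcium pump Atp2a2 (0.97 to 0.99), none of them in the Schwann cell lists. With 6 libraries and 11463 genes, such high values arise for many genes: 213 genes exceeded 0.9 with Sox10, 249 with S100b, 244 with Mbp and 80 with Cdh19.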

How the data were processed

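RNA sequencing measured 12 libraries, 3 for each fraction and genotype label, each from a pool of 2 mice. The deposited values are CPM, which the authors made from read counts. The submitters' processing notes name GRCm38, edgeR 3.26.8 and STAR 2.7.2a, and no counter or annotation is given in the sources used here. In every library 100% of CPM values were whole multiples of 1 read, within 0.05 read, so reads were recovered. All genes exceeded 0.1 CPM in at least 3 libraries, so low genes are not analysed here. No pair of libraries was identical (0 pairs).

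The test was limma 3.58.1 in R 4.3.3 (lmFit, trended and robust eBayes) on log2(CPM + 1). It covered genes that reached 1 CPM in 3 or more libraries of the fit, with Benjamini-Hochberg adjustment over all genes tested and a threshold of 0.05. The count test on recovered reads, edgeR 4.0.16, called 0, 1, 12208 and 0 genes (mature adipocytes, stromal vascular, fractions, interaction). DESeq2 1.42.0, another pseudocount (0.25), filters, scalings, a replicate block, 1 fit of all libraries and leaving out each library were alternatives. The test was tried on simulated counts. Fractions of a pool were paired by replicate number: in all 6 pairs the deviations from the group mean correlated across genes, at 0.169 to 0.278. Libraries of replicate 1 with different genotype labels also correlated, at 0.341 in mature adipocytes and 0.184 in stromal vascular cells. The pairing of fractions is therefore not settled by this measure. Positions came from GENCODE M21 and the promoter from RefSeq (1 of the 4 genes matched). Python 3.11.15, pandas 2.3.3, numpy 2.4.6, scipy 1.17.1 and matplotlib 3.10.9 were used.

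The 4 genes and the gene lists were chosen with earlier results of these data known. Genes named from the Schwann cell, perineurial, neuronal, growth factor and melanocyte lists are up to 5 by unadjusted p between fractions and 3 in a genotype comparison; exceptions are stated, and some genes the rule takes are not reported here. Genes most like another are the 5 with the highest Pearson correlation over the stromal vascular libraries, among genes of mean 5 CPM or more there. Intervals and floors cover counting error or the spread of pools only.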

Additional observations from a re-analysis of the deposited data

How the results depend on the processing

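Of 299 single-gene values under alternatives, 290 kept their direction and their side of the threshold, 3 newly passed and 6 turned. For S100b between fractions the values that turned were -0.38 with quantile normalization and -0.32 in wild-type libraries alone, and those that newly passed were 0.78 and 0.69 without mature adipocyte libraries Kdm5c+/- 3 and wild type 2. Cdh19 in mature adipocytes passed with DESeq2 only (-0.91). In stromal vascular cells without Kdm5c+/- replicate 2 the differences were -0.20 for both Sox10 and Cdh19, and without wild-type replicate 1 they were -0.06 and -0.08; the cause was not tested. Over all libraries left out in turn they ran from -0.20 to 0.48 for Sox10 and from -0.20 to 0.18 for Cdh19.

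Counts of calls moved more. In mature adipocytes the 0 calls became 250 with DESeq2, 1 with all 12 libraries in the fit and 0 to 3 with a library left out. In stromal vascular cells the 1 call became 53 with DESeq2, 4 with all 12 libraries and 0 with any library left out. For the interaction the 0 calls became 67 with DESeq2 and 0 to 7 with a library left out, the 7 without mature adipocyte library Kdm5c+/- 3. The fraction count of 12466 split into 8394 higher in stromal vascular and 4072 higher in mature adipocyte libraries, against 6177 and 6070 with TMM scaling, 6533 and 5746 with median-of-ratios scaling, 5542 and 6678 with quantile normalization, 6145 and 6063 with edgeR and 6530 and 5768 with DESeq2.

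With the replicate block, which pairs the fractions of a pool, 12503 genes passed between fractions and the call of none of the 4 genes changed. Between genotypes, libraries of the same number correlated at 0.341, -0.03 and 0.00 in mature adipocytes and 0.184, -0.28 and -0.20 in stromal vascular cells. The values of replicate 1 lay within or above the 0.169 to 0.278 of the fraction pairs, so these correlations do not settle which libraries are paired. Between genotypes the block gave 0 calls in either fraction. Depth limits Sox10 in mature adipocytes, at 7 to 35 reads per library.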

Other observations

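Of 12 growth factors and receptors tested that act between nerves, glia and fat, 6 were higher in stromal vascular and 5 in mature adipocyte libraries (limma), beside 59.1% and 28.7% of all genes tested. Erbb2, the co-receptor of ERBB3, averaged 49.1 CPM in stromal vascular and 7.17 CPM in mature adipocyte libraries (log2 difference 2.697). Nrg4, a neuregulin secreted by fat cells, averaged 4.05 CPM in stromal vascular and 98.0 CPM in mature adipocyte libraries (-4.42), and Ntrk2, a neurotrophin receptor, 234 CPM in stromal vascular and 847 CPM in mature adipocyte libraries (-1.85). Nrg1, the neuregulin of Schwann cells, averaged 0.2503 CPM in stromal vascular libraries and was at 0 in all mature adipocyte libraries.

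Clstn3 averaged 2.78 CPM in stromal vascular and 64.1 CPM in mature adipocyte libraries (-4.11). Its locus in mice also encodes CLSTN3B, an adipocyte protein known to promote the secretion of S100B from thermogenic fat cells, which a count per gene does not separate. In mature adipocytes Clstn3 measured 76.6 to 99.3 CPM under the Kdm5c+/- label and 30.4 to 59.2 CPM in wild type, a log2 difference of 0.99 ± 0.24 (limma, adjusted p = 0.273), while S100b was lower on average under that label. The groups did not overlap for Clstn3, as was so for 9.44% of all genes tested in that direction.

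Among 9 other genes of the S100 family, 6 were higher in stromal vascular libraries, with S100a4, a marker of fibroblasts and leukocytes, at 4.53 and S100a6 at 3.30, and 2 were higher in mature adipocyte libraries, with S100a1 at -1.26 and S100a11 at -0.69 (limma). These counts lay near the 59.1% and 28.7% of all genes tested.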
